A study of Mus musculus with 2 samples.

Results

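The DNA replication fork and repair genes described here were 51 genes for origin licensing, helicase activation, the replicative polymerases, the sliding clamp and its loader, Okazaki fragment joining, the copying of chromatin, the fork checkpoint, homologous recombination, the Fanconi anaemia pathway and related repair. The Mcm helicase genes were not among them. They were taken by name, from 20655 gene symbols with a probe, and all 51 had a probe, 61 probes in total. Well above background on both arrays were 49 genes, and 2, Brca1 and Fancd2, were so on the PBS array only. Whether a gene was well above background was read from the flag that the scanner software sets for each spot.

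The study hybridised Cy3-labelled total RNA of RAW246.1 cells, a mouse cell line labelled as macrophage, to 1-colour Agilent arrays. The 2 groups were cells given PBS, labelled as mock, and cells given synthetic miR-122, a microRNA abundant in liver, for which the labels state 5 μg/mL; both were grown in DMEM, no genotype is stated, and no time of treatment is stated in the labels. Each group was 1 array, so the differences below have no replicate, no test and no error between cultures. The treatment text is shared by both samples, and the title of the miR-122 sample contradicts its description, so every direction rests on the source name and description of that sample.

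Before a cell divides, the origin recognition complex, Cdc6 and Cdt1 place the replicative helicase on DNA, and Cdc45 and the GINS complex then switch it on. Primase and the DNA polymerases alpha, delta and epsilon copy the strands behind it, while histone chaperones and the methylation machinery restore the chromatin. The Pcna clamp tethers polymerases to DNA. Forks that stall are guarded by a checkpoint and repaired by homologous recombination and the Fanconi anaemia pathway. Many of these genes are transcribed mainly in dividing cells around the start of DNA synthesis, by E2F factors among others.

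A level here is the log2 processed signal of a gene's brightest probe minus the 75th percentile of all probes on that array, and a difference is miR-122 minus PBS. The scanner software also gives an error for each spot, and the errors of both spots combined to between 0.20 and 0.28 on the log2 difference of the 49 members. This modelled error covers the reading of a spot and no spread between cultures, and 2 times it is the size used below to call a difference small. Different probes of 1 gene gave differences with a pooled standard deviation of 0.30 over 3573 genes. Of the macrophage markers, 8 of 9 with a probe were detected on each array, and 5 of these 8 were lower and 3 higher on the miR-122 array. Csf1r had levels of 6.78 and 6.00, Itgam 3.72 and 2.87 and Adgre1 1.67 and 1.09 on the PBS and miR-122 arrays, while Cd14 had 6.23 and 6.47, Ptprc 1.91 and 2.36 and Spi1 -1.19 and -0.61. The 6 marker lists of other cell types had between 3 and 5 detected genes in PBS and between 2 and 5 with miR-122, of 6 to 8 with a probe in each list. The signals of the listed markers, summed before scaling, were 88458 and 59476 for macrophages and at most 2230 in PBS and 2119 with miR-122 for any other type, and Csf1r alone gave 46202 and 22246 of the macrophage sum. The part of these marker differences in the results below was not tested. In a culture measured in bulk, fewer cells in DNA synthesis and less of these RNAs per cell cannot be told apart.

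Most replication and repair genes were lower on the miR-122 array. Of 49 measured members, 22 were lower by 2-fold or more, which is 44.9%, beside 1.78% of all 15020 measured genes, and 0 were higher by 2-fold or more, beside 4.57% of all genes. The median difference was -0.93, or 1.91-fold lower, and the middle members lay between -1.39 and -0.55 by quartile, while the median over all genes was 0.09. The difference was negative for 44 members, 89.8%, beside 39.7% of all genes. By more than 2 modelled errors, 40 members were lower, beside 9.79% of all genes, 1 was higher and 8 were within that error. The shares of all genes higher by that much or within it were not counted. At a limit of 1.5-fold, 35 members were lower, beside 5.99% of all genes, and 1 was higher, beside 12.1%. At 4-fold, 5 were lower, beside 0.113% of all genes, and 0 higher, beside 0.812%. The members nearest to the 2-fold limit were Tipin, at -1.03, and Pole2, at -0.97. Neil3, Ankle1 and Aunip were already known as strong differences when the list was made. Without these 3 genes, 19 of 46 members were lower by 2-fold or more and the median was -0.91. The other members were also chosen with earlier results of these data known, so these shares are not independent of the choice. The plot of levels by role shows how far each gene lay apart on the arrays.

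**Figure D1:**
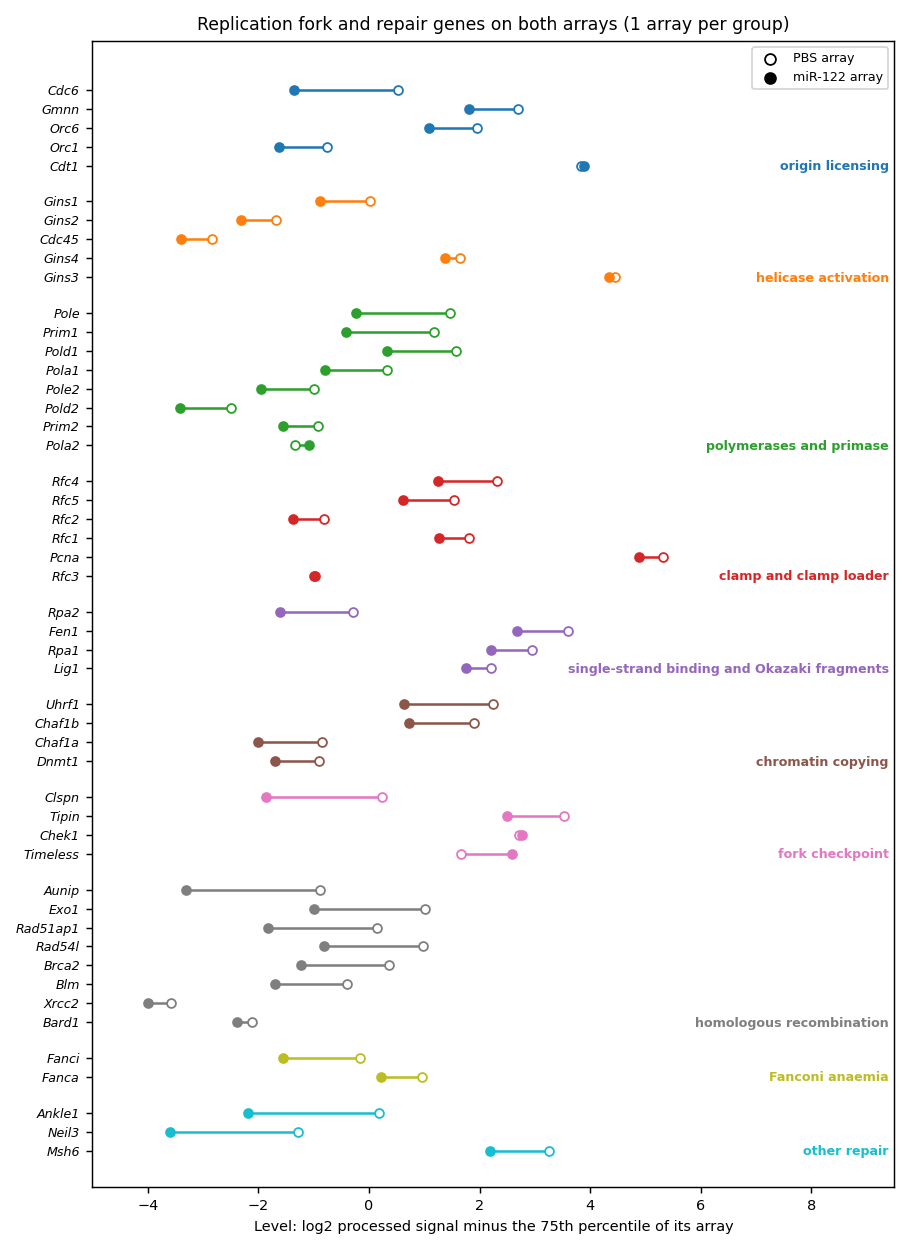
Each row is 1 of 49 measured members, grouped by role; the x axis is the log2 processed signal minus the 75th percentile of its array, with an open circle for the PBS array and a filled circle for the miR-122 array. The filled circle lies to the left of the open one for 44 genes, farthest for Aunip at -2.43, and to the right by 0.93 for Timeless.

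**Figure D2:**
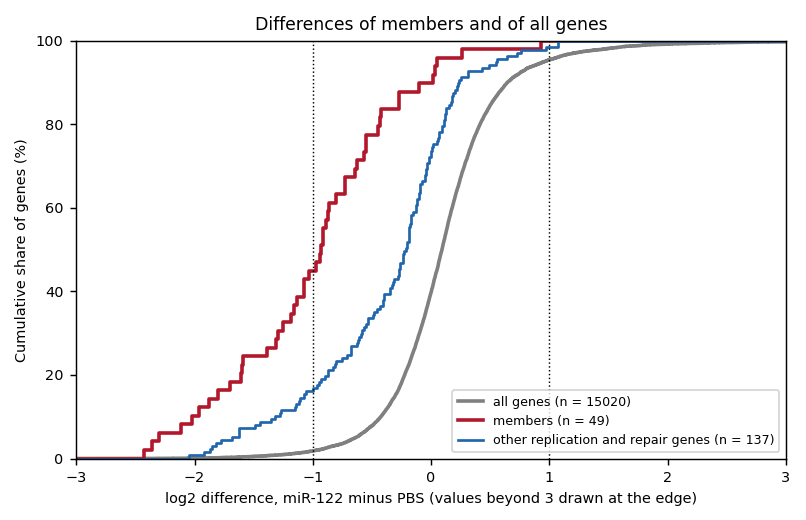
Cumulative share of genes in percent against the log2 difference, miR-122 minus PBS, for 49 members, 137 other replication and repair genes and all 15020 measured genes; dotted lines mark 2-fold. The line of the members crosses the lower 2-fold limit at 44.9% and that of all genes at 1.78%.

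Promoter sequences were set beside the values because E2F factors and the cell cycle genes homology region, or CHR, are textbook control elements of such genes. RefSeq windows of 300 bases, 250 before and 50 after an annotated start, were matched by symbol for 40 of the 51 members. The E2F motif was searched on both strands as TTTCCCGC, TTTCGCGC, TTTGCCGC and TTTGGCGC, the CHR as TTTGAA and the CCAAT box as CCAAT, and 2 pairs of matches overlapped each other in the 48 member windows. An E2F motif was found for 15 of the 40 members, 37.5%, against 2.6% of all 27025 genes in the table, 4% of the 11982 of them measured on both arrays and 12.7% of the 212 measured genes lower by 2-fold or more. The CHR letters were found for 7 of 40 members, 17.5%, against 20.2% of all genes and 16% of measured genes. The CCAAT box was found for 22 members, 55%, against 41.1% of all genes and 42.6% of measured genes. Of the measured genes lower by 2-fold or more, 29.2% held the CHR letters and 54.2% the CCAAT box. The measured members with an E2F match had a median difference of -0.97 over 15 genes and those without one -1.00 over 24 genes, and 7 and 12 of them were lower by 2-fold or more. For the CHR, 1 of 7 measured members with a match was lower by 2-fold or more, with a median of -0.80, and 18 of 32 without one, with a median of -1.10. The members with the most negative differences that held an E2F or CHR match were Ankle1, Clspn, Cdc6 and Uhrf1. They are printed 5′ to 3′ along the gene, from 190 bases before to 30 after the start, with the matched letters in capitals.
Ankle1: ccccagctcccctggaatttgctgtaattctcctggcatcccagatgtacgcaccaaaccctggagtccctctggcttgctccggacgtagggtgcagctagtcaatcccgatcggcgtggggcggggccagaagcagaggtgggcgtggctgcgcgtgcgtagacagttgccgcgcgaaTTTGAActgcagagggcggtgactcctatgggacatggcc
Clspn: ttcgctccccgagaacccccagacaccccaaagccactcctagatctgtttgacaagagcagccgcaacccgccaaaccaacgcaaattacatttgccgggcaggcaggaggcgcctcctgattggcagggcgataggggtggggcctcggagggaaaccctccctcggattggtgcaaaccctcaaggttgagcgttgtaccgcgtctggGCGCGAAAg
Cdc6: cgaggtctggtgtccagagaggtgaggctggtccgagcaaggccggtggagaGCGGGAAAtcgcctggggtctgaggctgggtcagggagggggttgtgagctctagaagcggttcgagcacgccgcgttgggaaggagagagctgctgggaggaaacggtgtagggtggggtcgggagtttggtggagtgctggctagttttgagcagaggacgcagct
Uhrf1: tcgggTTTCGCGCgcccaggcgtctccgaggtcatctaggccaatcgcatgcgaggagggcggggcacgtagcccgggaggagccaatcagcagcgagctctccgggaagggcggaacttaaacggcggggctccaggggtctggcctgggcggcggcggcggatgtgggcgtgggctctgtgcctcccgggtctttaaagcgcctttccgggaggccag
These stretches of GRCm38.p6 lie on the plus strand at chr8:71405822-71406041 for Ankle1, chr4:126556790-126557009 for Clspn, chr11:98907961-98908180 for Cdc6 and chr17:56304123-56304342 for Uhrf1. The Ankle1 match is the CHR, directly before the start at -10 to -5. The E2F letters lie at 22 to 29 after the start in Clspn, at -138 to -131 in Cdc6 and at -185 to -178 in Uhrf1. Cdt1 and Rfc3, whose differences were near 0, also held an E2F match in their windows, at 33 to 40 for Cdt1 and at -10 to -3 and 1 to 8 for Rfc3. A match says only that these letters are in the window.

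Of the 5 origin licensing genes, 4 were lower by at least 1.5-fold, a limit that 5.99% of all genes passed, and 1 by at least 2-fold. For this and the other roles below, 1.78% of all genes were lower by 2-fold or more. Cdc6, the loader that brings the helicase to the origin recognition complex, stood at 0.53 in PBS and at -1.36 with miR-122, 3.69-fold lower. Orc1 and Orc6, subunits of that complex, were 1.82-fold lower each, from -0.76 to -1.62 and from 1.95 to 1.08. Gmnn encodes geminin, which binds Cdt1 and blocks renewed licensing, and was 1.86-fold lower, from 2.69 to 1.80. Its partner Cdt1, which delivers the helicase, stood apart from the other licensing genes. Cdt1 had levels of 3.84 and 3.88, a difference of 0.03 with a modelled error of 0.20, and the sign of that difference turned with other scalings.

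The helicase activators were lower by smaller amounts, with 0 of 5 genes lower by 2-fold or more and a median of -0.55. Gins1 was 1.87-fold lower, from 0.02 to -0.89, and Gins2 1.55-fold lower, from -1.68 to -2.31. The subunits of the GINS complex were unequal. Gins4 differed by -0.27 and Gins3, from 4.44 to 4.34, by -0.10, both within 2 modelled errors. Cdc45, which joins the helicase to GINS, was dim at -2.84 and -3.39, a difference of -0.55. With normexp, another background correction that pulls dim spots together, Cdc45 differed by -0.10.

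The polymerase and primase genes were lower in 7 of 8 cases, 4 of them by at least 2-fold, with a median of -1.05. Pole, the catalytic subunit of the leading strand polymerase epsilon, went from 1.46 in PBS to -0.24 with miR-122, 3.25-fold lower, and its accessory subunit gene Pole2 was 1.96-fold lower. Pold1, the catalytic subunit of the lagging strand polymerase delta, went from 1.57 to 0.32, 2.39-fold lower, and its partner Pold2 was 1.91-fold lower at dim levels of -2.49 and -3.42. Pold2 was 1.3-fold lower with normexp. Prim1, the catalytic subunit of primase, was 3.01-fold lower, from 1.17 to -0.42, and the large primase subunit gene Prim2 1.56-fold lower. Primase works in 1 complex with polymerase alpha, whose subunits differed from each other. The catalytic subunit gene Pola1 was 2.19-fold lower, from 0.33 to -0.80, whereas Pola2, the accessory subunit gene, had a difference of 0.26 with a modelled error of 0.21, from -1.34 to -1.08.

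The clamp and its loader had a median of -0.56, with 1 of 6 genes lower by 2-fold or more. Pcna, the ring that tethers polymerases to DNA, had levels of 5.32 and 4.89, 1.35-fold lower. Among the loader subunits, Rfc4 was 2.1-fold lower, from 2.31 to 1.24, Rfc5 1.91-fold, Rfc2 1.48-fold and Rfc1, the large subunit gene, 1.46-fold lower. Rfc3 had levels of -1.00 and -0.98, a difference of 0.02 whose sign turned with other scalings. Of the genes for single-stranded DNA and lagging strand maturation, Rpa2, a subunit of the single-strand binding complex, was 2.48-fold lower, from -0.29 to -1.60, and the large subunit gene Rpa1 1.66-fold lower. Fen1, the nuclease that trims Okazaki fragments, was 1.88-fold lower, from 3.59 to 2.67, and Lig1, the ligase that seals them, 1.37-fold lower, from 2.21 to 1.75.

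All 4 genes for the copying of chromatin were lower by at least 1.5-fold, beside 5.99% of all genes, and 3 by at least 2-fold. Uhrf1, which recognises DNA methylated on 1 strand after replication, went from 2.24 to 0.63, 3.05-fold lower. Dnmt1, the methyltransferase that Uhrf1 recruits, was 1.74-fold lower, from -0.90 to -1.70. Chaf1b and Chaf1a, subunits of the chaperone that deposits histones on new DNA, were 2.26-fold and 2.24-fold lower, from 1.90 to 0.72 and from -0.85 to -2.01; with normexp Chaf1a was 1.74-fold lower.

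The fork checkpoint genes went both ways. Clspn encodes claspin, the adaptor through which the kinase ATR activates the kinase encoded by Chek1. Clspn stood at 0.24 in PBS and at -1.87 with miR-122, 4.32-fold lower. Chek1 itself had levels of 2.72 and 2.77, a difference of 0.05 with a modelled error of 0.20, whose sign turned with other scalings. Timeless and Tipin encode partners in the complex that protects the fork, and they differed in opposite directions. Tipin went from 3.52 to 2.49, 2.05-fold lower, and Timeless from 1.66 to 2.59, 1.91-fold higher. A second Timeless probe went from -0.30 to 0.61, 1.87-fold higher, and the difference of the brighter probe lay between 0.76 and 0.93 over the 6 scalings and background corrections compared. Timeless was the only 1 of the 49 members higher by more than 2 modelled errors.

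Homologous recombination members held several of the most negative differences, with a median of -1.70, or 3.25-fold lower. Of 8 measured, 6 were lower by 2-fold or more, beside 1.78% of all genes. Aunip, among these 6, was already known as a strong difference when the list was made. The 21 further recombination genes described below had a median of -0.24, with 5 lower by 2-fold or more. Aunip, which encodes a partner of Aurora kinase A that also takes part in DNA end resection, went from -0.88 to -3.31, 5.4-fold lower. Its processed signal on the miR-122 array, before scaling, was 35.0 with a modelled error of 4.38, and with normexp Aunip was 2.55-fold lower. Exo1, a nuclease that resects DNA ends, went from 1.02 to -1.00, 4.04-fold lower, or 3.39-fold with normexp. Rad51ap1, whose product promotes strand pairing, was 3.9-fold lower, from 0.14 to -1.82, and Rad54l, a motor protein gene of recombination, 3.47-fold lower, from 0.98 to -0.82. Brca2, a breast cancer susceptibility gene, was 3.03-fold lower, from 0.37 to -1.23, and the helicase gene Blm 2.45-fold lower, from -0.39 to -1.69, or 1.89-fold with normexp. Bard1 and Xrcc2 were dim and differed by -0.27 and -0.42. The sign of Xrcc2 turned with normexp, to 0.04. Brca1, the partner of Bard1, had 1 probe, which read -4.80 in PBS, and was not well above background on the miR-122 array. Taken at the lowest level well above background there, -4.92, Brca1 would be 1.09-fold lower. By its own signal it was 1.39-fold lower, with a modelled error of 0.49 on the log2 difference. These arrays give little on Brca1.

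In the Fanconi anaemia pathway, which repairs crosslinks between strands, Fanci went from -0.16 to -1.55, 2.62-fold lower, or 1.97-fold with normexp. Fancd2, whose product pairs with that of Fanci on DNA, read -3.42 in PBS and was not well above background on the miR-122 array. By its own signal there, Fancd2 was 2.76-fold lower, with a modelled error of 0.40 on the log2 difference. That signal lay just above the lowest level well above background, so that level is no strict limit. The 2.76-fold is therefore a dim reading and not a lower bound. Fanca, a subunit of the core complex, was 1.66-fold lower, from 0.95 to 0.22. Of the remaining repair genes, Ankle1, which encodes an endonuclease with ankyrin repeats, was 5.13-fold lower, from 0.18 to -2.18, or 3.32-fold with normexp. Neil3, a glycosylase that removes oxidised bases and opens crosslinks, was 4.93-fold lower, from -1.29 to -3.59, or 2.1-fold with normexp. Msh6, which recognises mismatched bases, was 2.1-fold lower, from 3.26 to 2.19.

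Several probes were present for 9 members, and they differed in how well they matched. The probes of Timeless, Rfc4, Xrcc2 and Chaf1b lay close together, as the plot of probes shows, with differences of -1.07 and -1.17 for Rfc4 and of -1.18 and -1.48 for Chaf1b. The second probes of Cdc6 and Pole were close to background on both arrays, with levels between -4.73 and -4.69, and differed by 0.02 and -0.03. The dimmer probe of Uhrf1 differed by -0.92, against -1.61 for the brighter one. For Ankle1, a second probe with levels of -2.34 and -2.91 differed by -0.58, so its mean over both probes was -1.47. Bard1 had 3 probes, which differed by -0.27, -0.88 and -1.30, and the brightest gave the smallest difference.

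**Figure D3:**
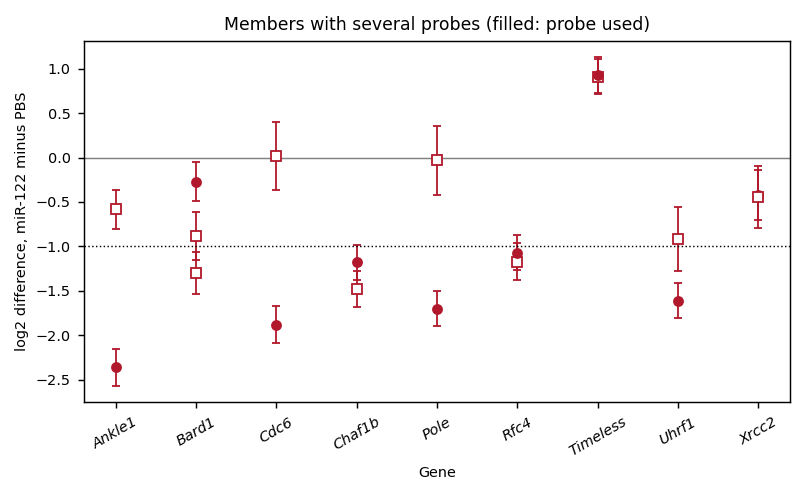
Log2 difference, miR-122 minus PBS, of every probe of the 9 members with several probes; filled circles are the brightest probe, used for the gene, open squares are the other probes, and bars are 1 modelled error of the scanner software. The probes of Cdc6, Pole and Ankle1 lie far apart, at -1.88 and 0.02, -1.70 and -0.03, and -2.36 and -0.58, while those of Timeless lie together at 0.93 and 0.91.

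The direction of most members held across processing. Of the 49 genes, 43 had negative differences under all 6 scalings and background corrections compared, 2 had positive ones, Pola2 and Timeless, and 4 changed sign, Cdt1, Chek1, Rfc3 and Xrcc2. At least 2-fold lower under all 6 were 18 members, and the 4 others of the 22, Fanci, Blm, Chaf1a and Pola1, were under 2-fold with normexp. How many of all genes kept their direction or the 2-fold limit under all 6 was not counted. Scaling on the median of each array moved the median of all genes by -0.18 and put 30 members lower by 2-fold or more, beside 3.04% of all genes. Quantile normalization moved it by -0.12 and put 25 there, beside 2.36%. The values of the authors nearly repeated the quantile normalization, with 25 members there and a member median of -1.03 in both. They are therefore not a separate check.

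**Figure D4:**
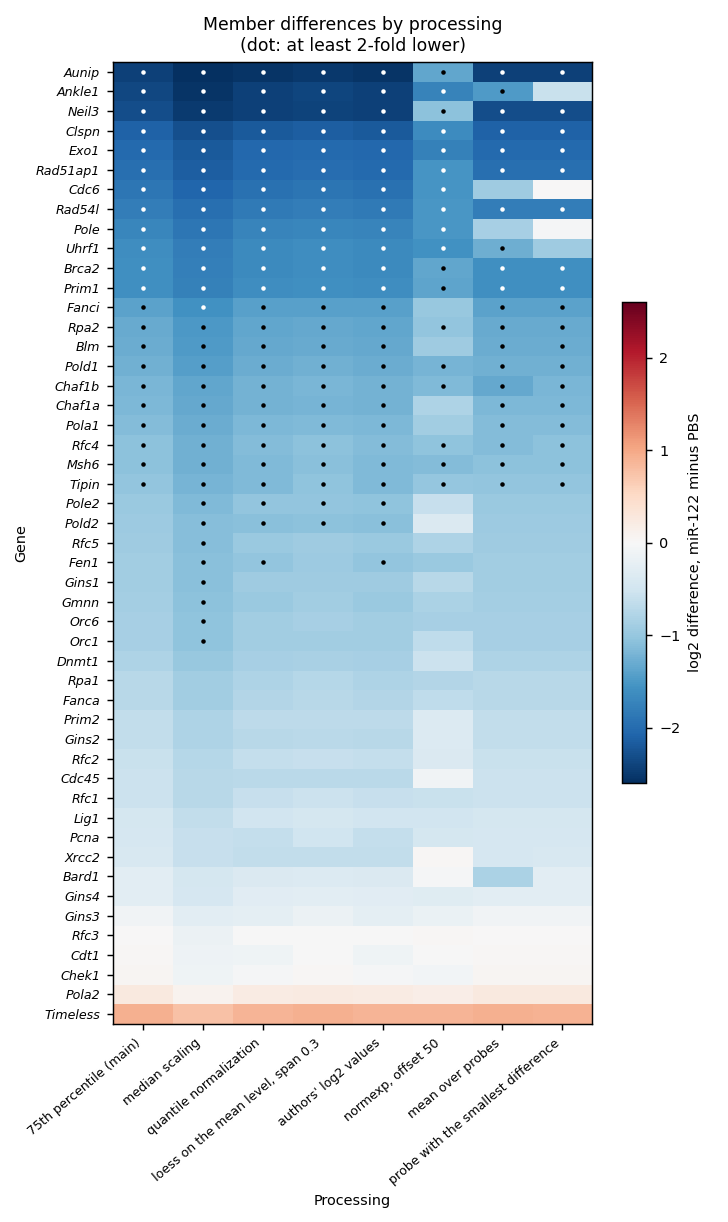
Log2 difference, miR-122 minus PBS, of each of 49 members (rows, most negative at the top) under 8 ways of processing (columns); blue is lower and red is higher on the miR-122 array, and a dot marks lower by 2-fold or more. The upper rows keep their dots in most columns, Cdc6 and Pole lose theirs in both probe columns, and Timeless stays red throughout.

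Other genes of replication and repair, taken from a list written without the members, were described in the same way. Of 142 listed genes, 137 were measured, and their median was -0.21. Of the 137, 22 were lower by 2-fold or more, beside 1.78% of all genes, and 2 higher, beside 4.57%. The same shares of all genes stand beside the counts of the single pathways below. With normexp 11 passed the lower limit, beside 0.945% of all genes. None of the 137 was 2-fold higher with normexp, median scaling, quantile normalization, loess or the values of the authors. Among 36 further replication genes, 12 were lower and 1 higher by 2-fold or more, and the median was -0.47. The lower genes included Ticrr, an initiation factor, 4.15-fold lower from -0.20 to -2.26, Esco2, an acetyltransferase of cohesin, 3.79-fold, Dtl, which targets Cdt1 for destruction, 3.6-fold, and the helicase gene Recql4, 3.21-fold lower. Dscc1 and Chtf18, of an alternative clamp loader, were 3.08-fold and 2.5-fold lower, the topoisomerase gene Top2a 3.07-fold and the histone chaperone gene Asf1b 2.73-fold. The checkpoint activator gene Topbp1, the initiation gene Donson, the clamp unloader gene Atad5 and the remodeller gene Hells were between 2.1-fold and 2.2-fold lower. Mms22l, which acts at damaged forks, went the other way, with levels of 5.13 and 6.19, 2.09-fold higher.

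Of 21 further recombination genes, 5 were lower by 2-fold or more, among them Rad54b by 3.53-fold, Polq by 3.08-fold, Xrcc3 by 2.55-fold and Gen1 by 2.22-fold. Of 12 further Fanconi anaemia genes, 2 were, Fancb by 3.66-fold and Ube2t by 2.43-fold, and of 14 damage checkpoint genes 2 were, the kinase genes Wee1 by 2.81-fold and Atr by 2.09-fold. The medians of the further recombination and Fanconi anaemia genes were -0.24 and -0.21. Nucleotide excision repair had 0 of 14 genes past 2-fold and a median of 0.04, end joining 0 of 10 and 0.06, and translesion synthesis 0 of 8 and -0.24. Polq was listed with recombination and not with end joining. Base excision repair had 0 of 16 lower and a median of -0.18, with Ung, which removes uracil from DNA, 2.11-fold higher, from 5.53 to 6.61.

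**Figure D5:**
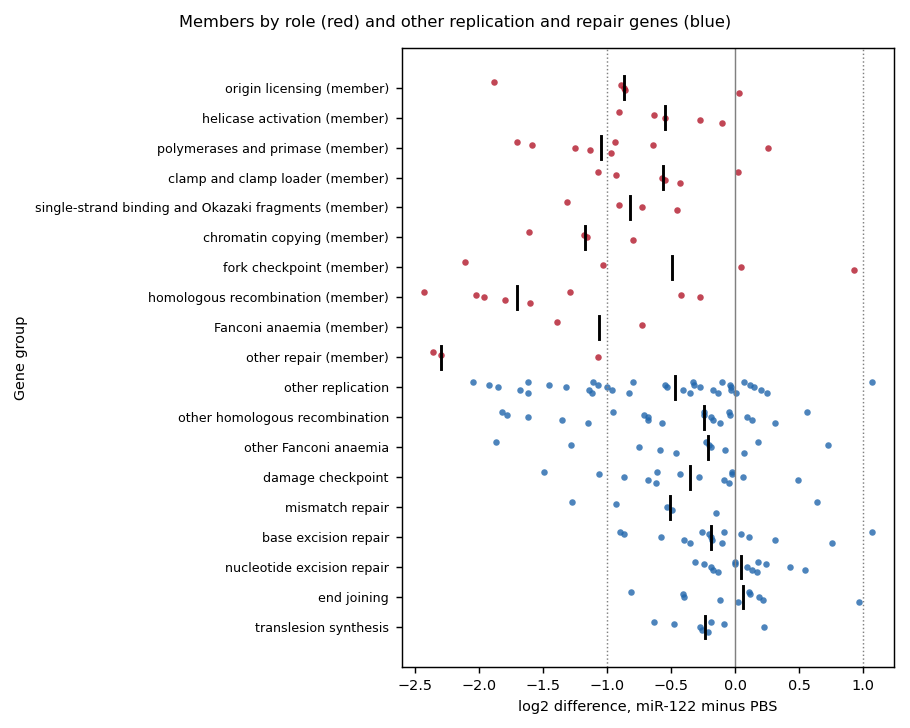
Log2 difference, miR-122 minus PBS, of each gene (points) by role for the members, in red, and by pathway for the other replication and repair genes, in blue; black bars are group medians and dotted lines mark 2-fold. The member medians lie between -2.30, for other repair, and -0.49, for the fork checkpoint. The -2.30 is over 3 genes, of which Neil3 and Ankle1 were already known as strong differences when the list was made. The medians of nucleotide excision repair and end joining lie at 0.04 and 0.06.

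Neighbouring gene groups of dividing cells were set beside the members without a test, since each group had 1 array. The 6 Mcm genes had a median of -1.26 with 5 lower by 2-fold or more, against -0.55 for the helicase activators that bind them. Of 26 measured mitosis genes, 19 were lower by 2-fold or more, with a median of -1.12, so the median of the members was not more negative than that of mitosis genes. Of 16 measured genes of deoxynucleotide synthesis, 5 were lower and 2 higher by 2-fold or more, and the median was -0.24. Of all genes, 1.78% were lower and 4.57% higher by 2-fold or more.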

How the data were processed

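Total RNA of RAW246.1 cells was measured on 2 arrays, 1 per group. The deposited scanner files hold spot intensities and a modelled error for each; per the file headers, version 11.0.1.1 of Agilent Feature Extraction subtracted the background, and no scaling between arrays was applied. The deposited series matrix holds log2 values that the authors normalized in a way not given in the sources used. Both columns have a median of 5.16 and correlate at 0.997 with the scanner signals of their own array. When sorted, the columns differ by at most 0.009, so they share 1 distribution, as quantile normalization gives. Of 39429 non-control probes, 27228 were named by RefSeq accession through a GRCm38.p6 gene table. Flagged spots were left out, and no spot was saturated.

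Signals were converted to log2, averaged over spots and set against the 75th percentile of each array, which differed by -0.28 between arrays, miR-122 minus PBS. A gene took its brightest probe, and was measured if that probe was well above background on both arrays. Counts use a fixed difference of 2-fold; a test needs more than 1 array per group. The 281 measured probes printed 10 times had a median standard deviation over spots of 0.05 in PBS and 0.06 with miR-122. The number of arrays limits the precision. Alternatives were median scaling, quantile normalization, loess with a span of 0.3, normexp with an offset of 50 on the median spot and background intensities, the log2 values of the authors, other filters and other probe rules. Every member is named, with other replication and repair genes past 2-fold. The members, lists and rules were chosen with earlier results of these data known. The gene table was tested on simulated data. R 4.3.3, limma 3.58.1, Python 3.11.15, numpy 2.4.6 and pandas 2.3.3 were used.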

Additional observations from a re-analysis of the deposited data

How the results depend on the processing

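The count of members at least 2-fold lower, 22, lay between 18 and 30 over the 10 alternatives that kept this limit, and their median difference between -1.11 and -0.81. The count was 35 at 1.5-fold, where 1 member was higher, and 5 at 4-fold, beside 5.99% and 0.113% of all genes lower by as much. The other replication and repair genes at least 2-fold lower fell from 22 to 11 with normexp, and all genes past that limit from 268 to 142; the cause was not tested. Many of the 489 single member values under these alternatives could hardly move. The other filters and the keeping of flagged spots left the brightest probe of a member in place. The probe rules had no choice for members with 1 probe. Of all 489, with these values included, 467 moved by less than the standard deviation between probes and 21 by more. In 1 case a difference of at least 2-fold turned around. This was Cdc6, which differed by 0.02 when the probe with the smallest difference stood for the gene, a probe close to background on both arrays; 4 members with smaller differences, Cdt1, Chek1, Rfc3 and Xrcc2, changed sign with scaling or background correction. No paired analysis was possible because each group held 1 array, and for the same reason no array could be left out. Dim members, such as Brca1, Fancd2, Xrcc2 and Cdc45, are limited by their signal over background.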
